A study of Mus musculus with 9 samples.

Results

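The genes described here encode the proteins that bring glucose into a cell and carry it through the first committed steps of glycolysis: the facilitative transporters Slc2a1, Slc2a3 and Slc2a4, the hexokinases Hk1 and Hk2, glucose phosphate isomerase (Gpi1) and the phosphofructokinases Pfkm, Pfkl and Pfkp. Members were all probe sets of the array whose single annotated gene symbol was one of these 9 names. They were 17 of 22626 probe sets and stood for 8 of 12393 genes. Gpi1 had no such probe set and was not analysed here, and 1 probe set that names Hk1 together with ribosomal protein genes was left out. Total RNA of 6 mouse alveolar rhabdomyosarcomas, a soft-tissue tumour with features of skeletal muscle, was compared with that of 3 wild-type skeletal muscles, on 1 Affymetrix array per sample. The sources used here do not give the genotype or driver of the tumours, which muscles were sampled, or the strain and age of the mice. They also do not say whether samples came from separate animals, so each p-value covers only the spread among these 9 samples. The values are MAS5 signals, a brightness in arbitrary units, multiplied here so that every array had the same trimmed mean; they can be compared between arrays for 1 probe set but not between probe sets. Differences and standard errors are on the scale of log2(signal + 16), which understates the change of dim probe sets.

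Glucose crosses the membrane by facilitated diffusion, and hexokinase traps it in the cell as glucose 6-phosphate. After isomerization to fructose 6-phosphate, phosphofructokinase adds another phosphate in a step that commits the sugar to glycolysis and is a main point of its control. Most of these steps are served by several genes. Adult skeletal muscle relies on Slc2a4 (GLUT4), which insulin and contraction bring to the cell surface, on Hk2, the hexokinase of insulin-sensitive tissues, and on Pfkm, the muscle phosphofructokinase. Slc2a1 (GLUT1) supplies basal uptake in most dividing cells, Slc2a3 (GLUT3) is a high-affinity carrier best known from neurons and blood cells, Hk1 is the widely expressed hexokinase, and Pfkl and Pfkp are the phosphofructokinases named after liver and platelets. Hk2 and Slc2a1 are also known as genes that many cancers express strongly.

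The arrays differed in quality and in how far they stood from the others. The deposited signals of muscle 1 and muscle 3 had trimmed means of 294 and 141, where the other 7 arrays had 500, and were brought to the same level. The Gapdh control gave 3'-to-5' ratios, which climb as RNA degrades, of 57.2 for muscle 2, 33.0 for muscle 3 and 1.68 for muscle 1, while tumours ranged from 1.93 to 9.39. The same ratio of the Actb control was 4.06 for muscle 2, 4.35 for muscle 3 and 1.87 for muscle 1, with muscles 2 and 3 inside the 3.35 to 6.78 of the tumours. Tumours 1 and 4, which had stood apart in previous work on these arrays, were left out together in an alternative. Adult fibre genes marked the muscles: the signals of 10 markers summed to between 173959 and 229287 on the muscle arrays and between 1611 and 83081 on the tumour arrays, highest on tumour 1. The myogenic factor Myod1 lay between 282 and 1206 in the tumours and between 300 and 716 in the muscles, an overlapping range. When signals were not rescaled, the median over all genes moved from 0.10 to 0.79 (log2), and the share of called genes that were higher in tumours from 48.8% to 86.5%.

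All 3 forms typical of muscle fell in the tumours, and 4 of the 5 general forms rose. With each gene read by its brightest probe set, 7 of the 8 genes passed the test (limma, Benjamini-Hochberg adjusted p under 0.05 over all genes), where 17.8% of all genes did. The 4 that rose, Slc2a1, Slc2a3, Pfkl and Pfkp, compare with 8.66% of all genes called higher, and the 3 that fell, Slc2a4, Hk2 and Pfkm, with 9.09% called lower. Hk1 differed in the direction of the other general forms and did not pass. The tumour and muscle signals of all 8 genes did not overlap, which was so for 21.6% of all genes. The median difference of the 8 was 1.57 (log2), against 0.10 for all genes. In these whole-tissue samples fewer cells of a type and less RNA per cell cannot be told apart. Without muscles 2 and 3 the directions of all 8 genes stayed and the count called was 1, Pfkm, while 173 of all genes were called; without tumours 1 and 4 it was again 4 higher and 3 lower.

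**Figure D1:**
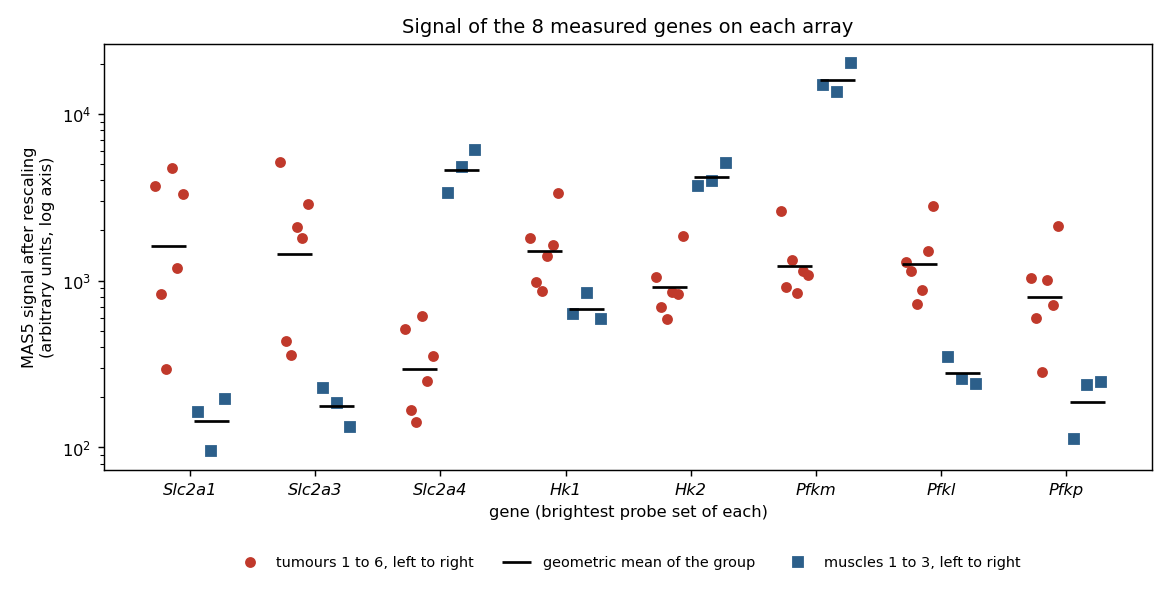
MAS5 signal of each gene's brightest probe set on each array, after rescaling (arbitrary units, log axis). Red circles are tumours 1 to 6, blue squares muscles 1 to 3 and black bars the geometric mean of a group; the groups of every gene are separate, with Slc2a4, Hk2 and Pfkm lower and the others higher in the tumours.

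The stretches just before the start sites of Slc2a1 and Pfkp, which rose, and of Hk2, which fell, are printed because a motif searched was found before a gene of each direction. Each is the 250 bases before a RefSeq transcription start (GRCm38.p6), 5' to 3' on the gene's strand: chr4:119108495-119108744 on the plus strand for Slc2a1, chr6:82774455-82774704 on the minus strand for Hk2 and chr13:6648772-6649021 on the minus strand for Pfkp. Capitals mark ACGTG or its reverse complement CACGT, the core letters of the site known for binding hypoxia-inducible factors.
Slc2a1: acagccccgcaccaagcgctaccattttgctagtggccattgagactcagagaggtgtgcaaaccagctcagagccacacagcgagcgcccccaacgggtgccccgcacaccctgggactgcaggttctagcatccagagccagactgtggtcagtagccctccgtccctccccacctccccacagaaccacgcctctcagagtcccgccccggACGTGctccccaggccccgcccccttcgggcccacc
Hk2: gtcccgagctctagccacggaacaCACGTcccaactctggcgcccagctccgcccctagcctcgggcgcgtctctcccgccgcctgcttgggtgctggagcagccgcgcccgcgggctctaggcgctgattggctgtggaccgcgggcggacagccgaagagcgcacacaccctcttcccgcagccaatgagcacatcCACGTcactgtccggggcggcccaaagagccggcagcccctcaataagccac
Pfkp: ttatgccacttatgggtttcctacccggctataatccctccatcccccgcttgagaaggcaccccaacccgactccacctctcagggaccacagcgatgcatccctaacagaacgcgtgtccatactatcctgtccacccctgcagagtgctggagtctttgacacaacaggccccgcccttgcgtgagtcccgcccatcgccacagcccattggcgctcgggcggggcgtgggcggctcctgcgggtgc
ACGTG on either strand started 36 bases before the start of Slc2a1 and 226 and 52 bases before that of Hk2, and these letters were not in the Pfkp window. RefSeq windows matched 7 of the 9 names with 11 windows, and none was used for Slc2a3 and Slc2a4. Of the 11 windows 4 held ACGTG, in Slc2a1, Hk2 and Pfkm, against 16.6% of 32851 windows of all genes. The GC-box letters GGGCGG, on either strand, were found in 4 windows (Slc2a1, Hk2, Gpi1 and Pfkp) and in 32.7% of all windows. The E-box letters CANNTG, which overlap ACGTG where it reads CACGTG, were found in 7 member windows and 66.2% of all windows, and in none of the 3 printed. A match describes letters in the window and shows no binding.

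Among the transporters, the general forms gained and the insulin-regulated form lost signal, each by several-fold at its brightest probe set. The Slc2a1 signal lay between 296 and 4767 in the tumours, with a median of 2249, and was 162, 95 and 196 on muscles 1, 2 and 3. Every tumour was brighter than every muscle, but tumour 3, at 296, was close to the muscles, while tumours 4, 1 and 6 were the brightest. Slc2a1 rose by 3.34 ± 0.71 (log2 ± SE), 10.1-fold, with an adjusted p of 0.0052 (limma). Its other probe sets, both built on a single source sequence, gave the same picture. One lay between 181 and 1797 in tumours and at 26, 30 and 74 in the muscles, the other between 233 and 1583 and at 76, 48 and 144, with differences of 3.72 ± 0.64 and 2.83 ± 0.55.

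Slc2a3 was read by 4 probe sets that did not agree. The brightest, a probe set of the type whose probes can match several transcripts, lay between 359 and 5171 in tumours with a median of 1944 and at 228, 184 and 133 in the muscles. Tumours 2 and 3 were the low ones, at 435 and 359, and tumour 1 was the highest. The difference was 2.92 ± 0.70 (log2 ± SE), 7.54-fold, with an adjusted p of 0.011 (limma). A second probe set, made from the same source sequence and of a type whose probes can cross-hybridise, differed by 2.57 ± 0.63. The others, each below the median signal of every array, differed by 0.84 ± 0.65 and 0.13 ± 0.64, and their groups overlapped. The smaller of these differences changed sign in 6 of its 19 alternatives. The Slc2a3 call was lost without muscle 3 (adjusted p = 0.064) and with the mean of its probe sets (0.072), in a range of 4.6e-05 to 0.37 over 21 alternatives, all with a positive difference.

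The Slc2a4 signal lay between 142 and 615 in the tumours, with a median of 303, and was 3378, 4817 and 6036 on muscles 1, 2 and 3. Every tumour was far below every muscle, at 3.00% to 13.0% of the muscle mean. Slc2a4 fell by 3.88 on the log2 scale (SE 0.45), a factor of 14.7, with an adjusted p of 8.1e-05 (limma). Its dimmer probe set, from the same source sequence, fell by 3.39 (SE 0.60). By its brightest probe set the Slc2a4 signal was highest on tumour 4, whose fibre markers summed to 3011. It was next on tumour 1, where they summed to 83081. The dimmer probe set gave the reverse, highest on tumour 1 at 176 and next on tumour 4 at 96. Fat cells also use this transporter: of 4 measured adipocyte markers all 4 were lower, with Adipoq between 9.8 and 44 in tumours and between 1842 and 3248 in muscles. The adipocyte count was 2 without muscle 1, 2 without muscle 2, 3 without muscle 3 and 2 without rescaling, and Adipoq was called in all 20 of its alternatives. The part of fibre or fat content in the Slc2a4 value was not tested.

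The hexokinases moved apart. Hk2, read by 1 probe set, lay between 592 and 1844 in the tumours with a median of 847 and at 3672, 3967 and 5097 on muscles 1, 2 and 3. It fell by 2.18 on the log2 scale (SE 0.37), a factor of 4.54, with an adjusted p of 0.001 (limma). Tumour 6 kept the most, 43.4% of the muscle mean, and the other 5 tumours kept 13.9% to 24.8%. The call was lost without rescaling, where the difference was -1.32 while all genes shifted upward (adjusted p = 0.069, in a range of 0.00013 to 0.17 over 21 alternatives). Hk1 lay between 869 and 3360 in tumours with a median of 1515 and at 631, 843 and 590 in the muscles. The lowest tumour, at 869, was only just above the brightest muscle, and the difference of 1.13 ± 0.40 did not pass (adjusted p = 0.07, limma). It passed without tumour 2 (0.0439), without tumour 3 (0.0445), with a weight per group (0.021) and without rescaling (0.0089), in a range up to 0.52. The other Hk1 probe set was below the median signal of every array, with 16 to 157 in tumours and 8 to 67 in muscles, and differed by 0.59 ± 0.54.

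Of the phosphofructokinases, the muscle form fell and the other two rose. Pfkm lay between 839 and 2613 in the tumours with a median of 1112 and at 14811, 13519 and 20087 on muscles 1, 2 and 3. Tumour 1 held the highest share of the muscle mean, 16.2%, and the others 5.20% to 8.23%. Pfkm fell by 3.69 on the log2 scale (SE 0.38), a factor of 12.9, with an adjusted p of 2.9e-05 (limma), and was called under each of the 21 alternatives. Pfkl lay between 722 and 2822 in tumours with a median of 1216 and at 348, 259 and 240 in the muscles. It rose by 2.11 ± 0.41, 4.33-fold, with an adjusted p of 0.0026 (limma). Tumour 6 was the brightest at 2822 and the other tumours lay from 722 to 1515. The second Pfkl probe set rose by 1.24 ± 0.37 (adjusted p over probe sets 0.035), with tumours between 681 and 1736 and muscles between 317 and 473, but its call was lost without tumour 5 (0.074), tumour 6 (0.061) or any of muscles 1, 2 and 3 (0.062, 0.13 and 0.17), in a range of 0.0062 to 0.67.

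Pfkp lay between 284 and 2129 in the tumours with a median of 860 and at 113, 238 and 247 on muscles 1, 2 and 3. Tumour 3, at 284, was next to muscles 2 and 3, and tumour 6 was the brightest. Pfkp rose by 2.00 ± 0.52, 4.01-fold, with an adjusted p of 0.016 (limma), and its call was lost without muscle 1 (adjusted p = 0.09, in a range of 0.00053 to 0.17). Its other probe set was below the median signal of every array, with 13 to 94 in tumours and 7 to 15 in muscles, and differed by 1.16 ± 0.44 (adjusted p over probe sets 0.096). It was called without tumour 2 (0.035), in a range of 0.029 to 0.54.

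Across all 17 probe sets, 8 were called higher and 4 lower, where 7.88% and 7.53% of all probe sets were, and 5 were not called. The 4 probe sets of Slc2a4, Hk2 and Pfkm all lay below 0 and the 13 of the general forms all above it. Of the 5 that did not pass, 4 were dim on every array and the other was the bright Hk1 probe set. The groups did not overlap in 13 of the 17, against 19.8% of all probe sets. Probe sets of a gene share its RNA and are not replicates.

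**Figure D2:**
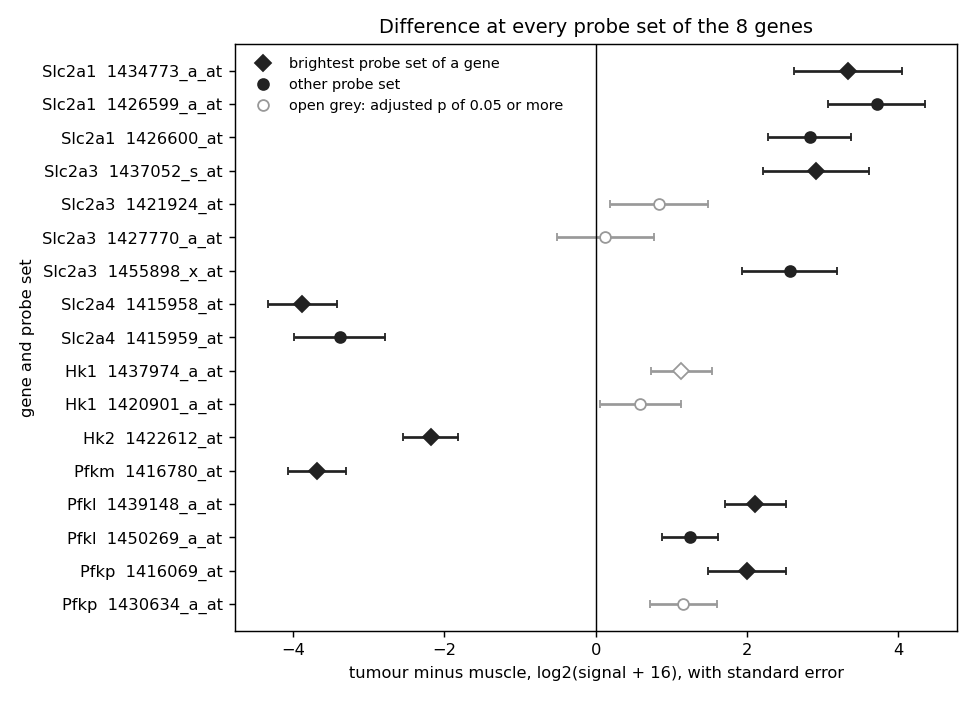
Difference between tumours and muscles at each of the 17 probe sets, on the scale of log2(signal + 16), with its standard error from the fit over all probe sets. Diamonds are the brightest probe set of a gene and open grey symbols did not pass the test; the 4 probe sets of Slc2a4, Hk2 and Pfkm lie left of 0 and the other 13 right of it.

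The balance between general and muscle forms was compared within each array, where a common scaling of the array nearly cancels. Such a change shows that the paired genes did not change by the same amount, not how or whether each changed. All 5 pairs fixed for this comparison moved toward the general form on every tumour array. Slc2a1 gained 7.22 ± 0.47 (log2 ± SE, 6 tumours and 3 muscles) over Slc2a4, at least 5.82 above the muscle mean in each tumour. Slc2a3 gained 6.80 ± 0.58 over Slc2a4, Pfkl 5.80 ± 0.46 over Pfkm and Pfkp 5.69 ± 0.55 over Pfkm. The smallest change was that of Hk1 against Hk2, at 3.32 ± 0.26, or 9.96-fold. It was also the most even, between 3.08 and 3.55 in single tumours with an SD of 0.18, where the other pairs had SDs of 0.79 to 1.11. With the mean of all probe sets its SD was 0.41, close to the 0.43 of Slc2a3 against Slc2a4.

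Every pair gave p = 0.024 in a two-sided exact permutation test, before and after Benjamini-Hochberg adjustment over the 5 pairs, and this is the smallest p that 6 arrays against 3 allow. Pairs that share Slc2a4 or Pfkm are not independent of each other. The muscles spread by at most 0.78 around their mean in any pair. Without rescaling the 5 changes were 7.11, 6.66, 3.28, 5.72 and 5.58 in the order Slc2a1, Slc2a3, Hk1, Pfkl and Pfkp. With the mean of all probe sets Slc2a3 gained 5.25 over Slc2a4.

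**Figure D3:**
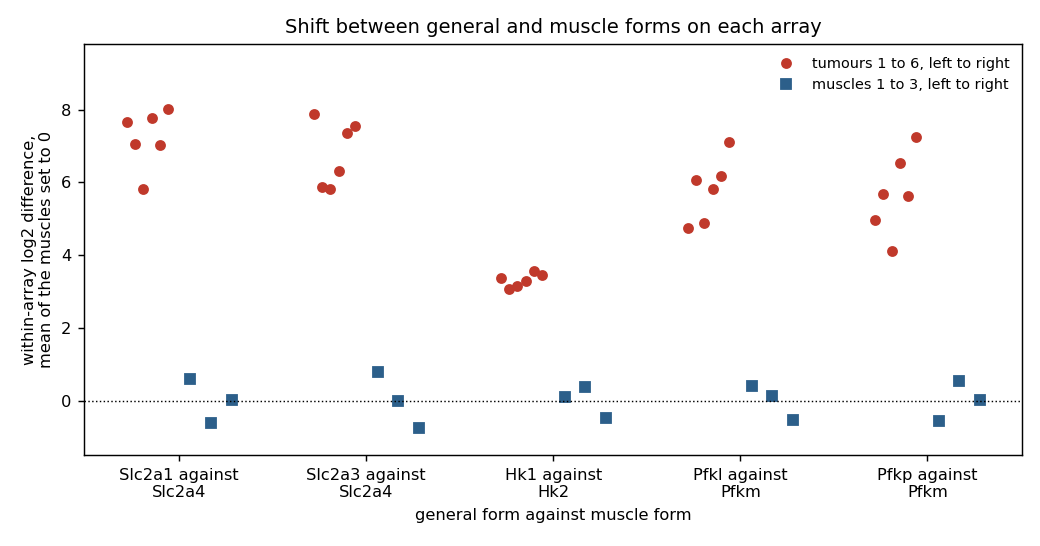
Within-array log2 difference between a general form and its muscle form for 5 pairs, with the mean of the 3 muscles set to 0. Red circles are tumours 1 to 6 and blue squares muscles 1 to 3; all tumours lie above all muscles, and Hk1 against Hk2 is the smallest and tightest shift.

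The tumours did not share one level of these genes. By their brightest probe sets Slc2a1 and Slc2a3 varied most, with the brightest tumour 16.1 and 14.4 times as bright as the dimmest. Their SDs among tumours, 1.53 and 1.51 (log2), exceeded those of 96.9% and 96.8% of 6196 genes of above-median mean. The other Slc2a1 probe sets spanned 9.93-fold and 6.80-fold. The second Slc2a3 probe set spanned 7.85-fold and its dim ones 25.5-fold and 19.7-fold. The brightest Pfkp probe set spanned 7.49-fold. Pfkp had an SD of 0.94, and the SDs of Hk2, Pfkm, Pfkl, Hk1 and Slc2a4 lay between 0.56 and 0.81. By the brightest probe set of each gene, tumour 3 was the lowest tumour for 7 of the 8 genes, all but Pfkm. By the same probe sets tumour 6 was the highest for Hk1, Hk2, Pfkl and Pfkp. Tumour 4 was so for Slc2a1 and Slc2a4, and tumour 1 for Slc2a3 and Pfkm. Other probe sets did not all rank the tumours so. Those of Slc2a1 and the second of Slc2a3 were also lowest on tumour 3. The second probe sets of Pfkl (681, against 754 on tumour 3), Slc2a4 and Pfkp were lowest on tumour 2. The dim ones of Slc2a3 and Hk1 were lowest on tumour 2 or 5. The other Slc2a1 probe sets were highest on tumour 6, and the dimmer one of Slc2a4 on tumour 1. The median signal of all probe sets was 206 on tumour 3, within the 144 to 276 of the tumour arrays.

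Over the 6 tumours 2 of the 28 pairs of members passed the test of correlation, and each paired a muscle form with a general form. Pearson r was above 0 in 27 of the 28 pairs. Pfkm was the member least tied to the others: its r with Slc2a1, Slc2a4, Hk1, Hk2, Pfkl and Pfkp lay between -0.0014 and 0.197, and with Slc2a3 it was 0.447. Slc2a1 and Slc2a4, which differ from muscle in opposite directions, put the 6 tumours in the same order (Pearson r = 0.956, Spearman rho = 1, exact permutation p = 0.0028 for each, adjusted p = 0.039 over 28 pairs). Without the 2 tumours farthest from the Slc2a1 median r was 0.953. Hk2 and Pfkp also gave the same order (r = 0.940, rho = 1, exact permutation p = 0.0028 for each, adjusted p = 0.039), with r = 0.857 without the 2 farthest tumours. A p of 0.0028 is the smallest that 6 tumours allow, and values of 1 array share its scaling. The other 26 pairs did not pass the adjustment; Hk1 and Hk2 had r = 0.979 and rho = 0.943, with exact permutation p of 0.0056 and 0.017 and adjusted p of 0.052 and 0.078.

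The size of r and the shared order depended on the probe set, and the shared order also on the scaling. With other probe sets r of Slc2a1 and Slc2a4 was 0.562 to 0.876 and rho 0.314 to 0.886. With the dim Pfkp probe set r of Hk2 and Pfkp was 0.142 and rho 0.257. With median centring r was 0.977 for Slc2a1 with Slc2a4 and 0.912 for Hk2 with Pfkp, but rho fell to 0.943 and 0.6. Neither pair then passed (adjusted permutation p = 0.078 and 0.23), and 23 pairs lay above 0. With quantile normalization both pairs passed at 0.039 and all 28 lay above 0.

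**Figure D4:**
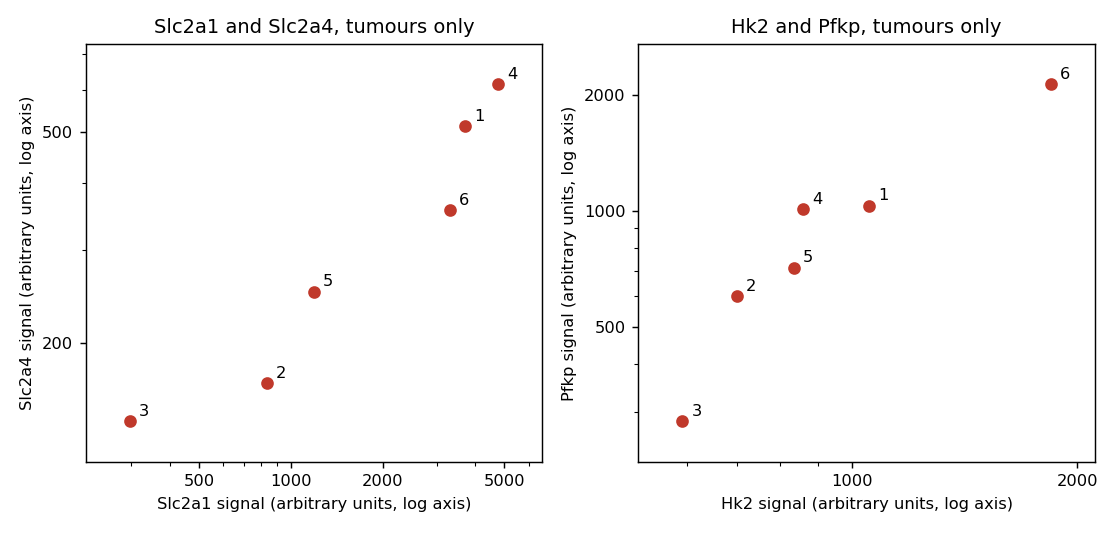
Signals of Slc2a1 and Slc2a4 (left) and of Hk2 and Pfkp (right) in the 6 tumours, in arbitrary units on log axes; each point is 1 array, numbered by tumour. Both pairs rank the tumours alike, with tumour 3 lowest in each, tumour 4 highest on the left and tumour 6 highest on the right.

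Of the marker lists of other cells, those of macrophages and dividing cells were called higher in most or all members. Of 9 macrophage markers 8 were higher in the tumours (sums of 9271 to 40836, against 2923 to 4215 in muscles), highest on tumour 1 and lowest on tumour 6. All 5 measured genes of dividing cells were higher (10679 to 35658 against 378 to 1436). For all these marker counts, the shares of all genes called were 8.66% higher and 9.09% lower. Of 5 platelet markers 1 was higher, Pf4, while Itga2b, Gp9 and Gp1bb lay within overlapping ranges, and the sums were 1822 to 3956 against 1070 to 1402. Of 5 erythroid markers 0 were called (limma; sums of 508 to 13521 against 652 to 1347), but tumour 6 reached 13521 and tumour 4 reached 4677. By its brightest probe set Slc2a1 was high on both and on tumour 1, whose erythroid sum of 1154 lay within that of the muscles. Of 6 neutrophil markers 1 was higher, S100a8, with sums of 485 to 6309 against 857 to 1440. Of 5 T cell markers none was called, of 3 nerve and Schwann cell markers 1 was lower, and 1 of 6 was lower for endothelium, for fibroblasts and for myoblasts. Those lower ones were Mbp, Tek, Lum and Des in that order. The Mbp call was lost without muscle 1 or 2, that of Tek without muscle 2 or 3, that of Lum without tumour 4, 5 or 6 or any 1 muscle, and that of Des without tumour 3, 4, 5 or 6 or any 1 muscle. The Pf4 call was lost without tumour 3, 4 or 6 or muscle 2 or 3 and the S100a8 call without tumour 4, 5 or 6 or any 1 muscle. Their part in the signals of Slc2a1, Slc2a3, Hk1, Pfkl and Pfkp was not tested.

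Of 9 other hexose transporters and hexokinases measured, 8 were not called, with a median of -0.02. Over all genes 17.8% were called. Only 1 of the 9 had an above-median mean, so dim signals limit what the rest can show. The gene that passed was Slc2a8, a transporter of intracellular membranes, at 75 to 431 in tumours and 504, 464 and 999.8 in the muscles. It fell by 1.86 (SE 0.52, adjusted p = 0.022, limma), and its call was lost without any 1 of the muscles, in a range of 0.0043 to 0.52. Of the 4 measured genes that set or reverse the phosphofructokinase step, 2 were lower, where 9.09% of all genes were. Fbp2, the muscle fructose bisphosphatase, lay between 30 and 90 in tumours and between 969 and 2449 in muscles, and fell by 4.66 (SE 0.45). Pfkfb3, which makes the activator fructose 2,6-bisphosphate, fell by 2.41 (SE 0.59, adjusted p = 0.012, limma), from 641, 1055 and 3450 in the muscles to 59 to 484, and its call was lost without muscle 3, in a range of 0.0057 to 0.61.

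Below phosphofructokinase 4 of 13 measured genes were lower and 2 higher, with a median of -0.76, where 9.09% and 8.66% of all genes were. The muscle enzymes Pgam2 and Eno3 fell, and so did Aldoa, the aldolase of muscle and most other cells, at -2.14 ± 0.54. Pgam1, the general phosphoglycerate mutase, lay between 1921 and 3810 in tumours and between 401 and 596 in muscles. Aldoc, the brain aldolase, differed by 2.07 ± 0.63 (adjusted p = 0.036, limma), a call lost without tumour 4, 5 or 6 or any 1 of the muscles, in a range of 0.0017 to 0.55. The Aldoa call was lost without muscle 2 or muscle 3, in a range of 0.00045 to 0.45. With any 1 array left out the counts were 2 to 6 lower (6 without tumour 1, 2 without muscle 2 or muscle 3) and 1 to 2 higher (1 without tumour 4, 5 or 6 or muscle 2 or 3). Without rescaling it was 2 lower and 3 higher.

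Genes of the branches from glucose 6-phosphate were mostly not called. Of 13 measured genes 4 were lower, 1 higher and 8 not called, with a median of 0.47. Over all genes 9.09% were called lower and 8.66% higher. The 3 that fell most lead to glycogen: glycogen synthase Gys1 at -4.21 ± 0.57, Ugp2, which makes UDP-glucose, at -3.99 ± 0.34 and the phosphoglucomutase Pgm1 at -3.44 ± 0.39. Pgd of the pentose phosphate pathway rose by 1.74 ± 0.41 (adjusted p = 0.009, limma), from 1252 to 1929 in muscles to 2344 to 8942, and its call was lost without muscle 3, in a range of 0.00054 to 0.33. Without rescaling 3 were lower and 3 higher; the count higher was 3 without tumour 2, 2 without tumour 3 and 0 without muscle 3.

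Genes that carry the insulin signal or move Slc2a4 vesicles were lower or not called with 1 exception. Of 18 measured 7 were lower, 1 higher and 10 not called, with a median of -0.46. Among all genes 9.09% were called lower and 8.66% higher. Sort1 (sortilin), a sorting receptor of those vesicles, lay between 294 and 461 in tumours and between 1747 and 3185 in muscles, and fell by 2.66 (SE 0.32). The small GTPase gene Rhoq (TC10) and the membrane fusion gene Snap23 fell by 2.33 (SE 0.44) and 2.32 (SE 0.48). The higher one, Rab8a, at 1.10 ± 0.36 (adjusted p = 0.048, limma), was not called under 13 of 21 alternatives, among them every one that left out tumour 3, 4, 5 or 6 or a muscle (range 0.0079 to 0.73). With 1 array fewer the count lower was 3 to 7, and 3 without muscle 3, and without rescaling the list had 1 lower and 2 higher; the calls of Rhoq and Snap23 were among those lost.

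The 13 genes listed as regulators of these genes were transcription factors apart from Txnip, an inhibitor of glucose uptake. Of them 8 were lower and 2 higher, with a median of -1.82, where 9.09% and 8.66% of all genes were. The deepest falls were those of Klf15, a factor of muscle and fat metabolism, at -4.09 ± 0.52, Mef2c, a muscle factor known to act on Slc2a4, at -3.54 ± 0.72, and Mlxipl (ChREBP), the carbohydrate response factor, at -3.09 ± 0.58. Myc, which is known to act on Slc2a1 and glycolytic genes, lay between 292 and 724 in tumours and at 104, 133 and 47 in the muscles, and rose by 2.01 ± 0.43 (adjusted p = 0.005, limma). Sp1 rose by 1.17 ± 0.34 (adjusted p = 0.028, limma), a call lost without tumour 5, muscle 2 or muscle 3, in a range of 0.0044 to 0.75. Hif1a, singled out after its values were seen, lay between 385 and 3763 in tumours and at 835, 989 and 958 in muscles and did not pass (0.92 ± 0.54, adjusted p = 0.30, limma). It passed without tumour 1, in a range of 0.005 to 0.78 over 21 alternatives. Its signal was lowest on tumour 1 and highest on tumour 4. Over the fits with 1 array fewer, between 5 and 8 were lower and between 1 and 3 higher (5 lower without muscle 3, 3 higher without tumour 1, and 1 higher without tumour 5, muscle 2 or muscle 3), and without rescaling 3 were lower and 3 higher.

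The genes most like a member over the 9 arrays were found by the root mean square difference of centred log2 signals among 6196 genes of above-median mean. For Slc2a1 they were Cyb5r3 (0.55), Wwc1 (0.60) and Slc2a3 (0.67). For Slc2a4 they were Tmod1 (0.34), Pgm1 (0.40) and Ak1 (0.41). For Pfkm they were Phka1 (0.33), the muscle regulatory subunit of phosphorylase kinase, C2cd2 (0.36) and Mtfp1 (0.40). For Pfkp they were Dock5 (0.43), C77080 (0.44) and Srgn (0.49).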

How the data were processed

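Biotin-labelled RNA of 6 tumours and 3 muscles was hybridised to Affymetrix arrays. Per the submitters' processing notes, which name no version, MAS5 made the deposited intensity of each probe set, a signal on a linear scale. The sources used here give no scaling target, filter or detection call, so dim signals can be background. The members, lists and tests were chosen with earlier results of these data known, including the off-scale muscle arrays, and give no independent support to them.

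Each array was multiplied to the median of the 9 trimmed means (2% off each end). Of 22690 probe sets 64 were controls and were dropped; 20380 carried a single symbol, 691 several and 1555 none. A gene was read by its probe set of highest mean log2 value over all 9 arrays, 6 of them tumours, so bright tumour probe sets can be favoured. Tests were run with limma 3.58.1 in R 4.3.3 (lmFit, eBayes with an intensity trend) on log2(signal + 16) over all genes and, separately, all probe sets, with Benjamini-Hochberg adjustment and a threshold of 0.05. Isoform pairs and correlations had exact permutation tests (Python 3.11.15, scipy 1.17.1, numpy 2.4.6, pandas 2.3.3). Named genes were the members, at most 3 called genes per direction and pathway list, the 3 most alike genes of Slc2a1, Slc2a4, Pfkm and Pfkp, and markers from the cell type lists; the markers singled out, and Hif1a outside the rule, were picked after their values were seen. Arrays of the same replicate number were not treated as pairs. The number of arrays limits the precision. Promoter sequences came from RefSeq (GRCm38.p6), and no gene coordinates were matched to probes.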

Additional observations from a re-analysis of the deposited data

Results flagged for a closer look

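Of 22 sets of 6 tumour values examined (17 probe sets and 5 isoform pairs), 1 held a tumour far from the others. On the dim Hk1 probe set tumour 1 had a signal of 157 against 16 to 42 in the other tumours, and its gap to the next was 0.646 of the whole range on the log2 scale, above Dixon's 95% critical value for 6 samples. Chance flags about 1 in 20 such sets. The bright Hk1 probe set did not set tumour 1 apart, at 1812 between 869 and 3360.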

How the results depend on the processing

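The alternatives were values without rescaling, quantile normalization, median centring, offsets of 1 and 64, no genes of below-median mean, no intensity trend, a weight per group, a replicate block, averaging the probe sets of each gene, each array left out, and leaving out tumours 1 and 4 or muscles 2 and 3; other settings of the correlations and of the list counts were added after the data had been seen. All 8 genes kept their direction in all 21. Without muscles 2 and 3, with the lone muscle assumed to vary like the tumours, 0 members were called higher and 1 lower, 0 and 1 member probe sets, and 173 genes in all. Leaving out 1 array gave 3 to 5 members called higher and 3 lower, 5 (without muscle 3) to 10 and 4 member probe sets, and 1110 to 2769 genes, the lowest without muscle 3 and 1267 without muscle 2. With the replicate block 1434 genes were called, and Pfkp was not (adjusted p = 0.11); same-numbered deviations correlated at 0.23, 0.18 and -0.02, and 2 of the 3 muscles matched their own number best; as the third pair did not correlate and no label ties the numbers, they were not treated as pairs. Hk1 against Hk2 ranged from 3.08 to 3.51 when 1 array was left out, the extremes being without muscle 3 and without muscle 2. All 5 pairs kept their direction in all 16 alternatives. With a muscle or tumours 1 and 4 left out, the permutation test cannot reach 0.05. Signals below the array median limit what the dim probe sets can show.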
